A study of Homo sapiens with 12 samples.

Results

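Interferon and double-stranded RNA response genes were followed in the human lung adenocarcinoma line A549 after knockdown of FAM60A or SDS3 with small interfering RNA (siRNA). The members were chosen by name as a list of 43 genes, of which 42 were measured and tested; 1 listed gene is not analysed here. Each gene was read from its brightest probe set, the one with the highest mean over the 12 arrays, and 18621 of 19775 genes with a probe set of their own passed the level filter, log2 5 on at least 3 arrays. The 4 groups of 3 arrays each were cells with FAM60A siRNA, their controls with non-targeting siRNA, cells knocked down for SDS3, and a separate set of non-targeting controls for that experiment. FAM60A, now named SINHCAF, and SDS3, now named SUDS3, belong to the SIN3 co-repressor, which brings histone deacetylases to chromatin. Every group received siRNA, per the labels at 50 nM with a lipid reagent, and was lysed 3 days later. No untransfected cells were analysed here, so a response to siRNA that a knockdown and its controls share does not appear in any difference below. The labels name a single siRNA for FAM60A, so depletion of FAM60A and any other effect of that siRNA cannot be told apart, and their protocols name no siRNA for SDS3. The labels give wells plated in triplicate and name no separate cultures, so the p-values measure a spread that may be technical, and 3 arrays a group limit the precision of every value.

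Cells recognise double-stranded RNA through the cytosolic helicases RIG-I and MDA5 (genes RIGI and IFIH1), which signal through the mitochondrial adaptor MAVS, and through TLR3 in endosomes. These routes activate the transcription factors IRF3 and IRF7 and lead to secretion of interferons, which in turn act through JAK kinases, STAT proteins and IRF9. The resulting complex binds the interferon-stimulated response element (ISRE) in the promoters of antiviral genes such as the IFIT, IFITM, MX and OAS families. Interferon-gamma acts mainly through another element, the gamma-activated site (GAS), and also raises the immunoproteasome subunits and the peptide transporter that load class I molecules.

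The promoters of the members carry the ISRE core far more often than promoters at large, which is a property of the list and not a result of the knockdowns. The core GAAANNGAA, searched on both strands, was found in at least 1 RefSeq promoter of 24 of the 33 members matched to the promoter table (72.7%), against 8.11% of all 35114 promoters of the same 300 bases (250 before to 50 after the start, GRCh38.p14). The GAS letters TTCNNNGAA were found in 10 of the 33 (30.3%), against 7.66% of all promoters, and in IFI27, IFITM1 and MX1 they share bases with an ISRE match. The member shares count genes with a match in any of their promoters (43 promoters in all), while the shares of all promoters count single promoters. The units are therefore unlike, and a member with several promoters had more bases searched. A match is a string of letters and not a shown binding site. The windows below are from members whose values are described in detail, among them genes that fell, genes that rose and 1, MX1, that passed in neither knockdown. Capitals mark the ISRE core on either strand, and each window reads along its gene's strand. For IFIT3 and for MX1, 1 of several listed starts is shown, and a further MX1 start has no ISRE core.

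TLR3, chr4:186069137-186069196, plus strand: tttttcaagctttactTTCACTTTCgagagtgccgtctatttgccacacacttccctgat
IFIH1, chr2:162318805-162318864, minus strand: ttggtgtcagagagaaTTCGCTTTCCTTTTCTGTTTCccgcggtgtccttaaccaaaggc
EIF2AK2, chr2:37156943-37157002, minus strand: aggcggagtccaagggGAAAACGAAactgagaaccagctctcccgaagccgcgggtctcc
ISG15, chr1:1013368-1013427, plus strand: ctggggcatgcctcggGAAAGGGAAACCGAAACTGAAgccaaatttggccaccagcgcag
IFIT3, chr10:89332414-89332473, plus strand: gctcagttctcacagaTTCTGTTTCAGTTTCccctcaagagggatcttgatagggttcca
IFITM3, chr11:320869-320928, minus strand: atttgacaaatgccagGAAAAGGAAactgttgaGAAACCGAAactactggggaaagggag
ISG20, chr15:88638931-88638990, plus strand: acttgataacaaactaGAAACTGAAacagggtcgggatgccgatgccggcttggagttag
MX1, chr21:41420553-41420607, plus strand: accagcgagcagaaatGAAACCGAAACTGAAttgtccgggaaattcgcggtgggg

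Of the 24 members that hold the ISRE core, FAM60A knockdown raised 5 and lowered 8, with 11 not called, where 36.8% of all tested genes were called at an adjusted p under 0.05 (limma). SDS3 knockdown raised 1, TAP1, and lowered 7, with 16 not called, where 34.6% of all tested genes were called; the TAP1 call was lost with arrays scaled to bacterial or to poly-A control probe sets. Among the 9 matched members without the core, the counts were 3 higher, 1 lower and 5 not called after FAM60A knockdown, and 2 higher, 3 lower and 4 not called after SDS3 knockdown. TLR3, IFIH1, IFIT3 and ISG20, whose windows stand above, fell after FAM60A knockdown, while EIF2AK2, ISG15 and IFITM3 rose. The 9 with no ISRE core in the bases searched were IRF9, MAVS, RIGI, PSMB9, HERC6, IFI35, OAS1, IRF1 and XAF1.

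Each siRNA lowered its own target, and the arrays of the 2 experiments lay on different levels. SINHCAF stood at 9.30 ± 0.163 in the FAM60A knockdown and 11.99 ± 0.0195 in its controls (log2 signal, SD, n = 3 each), which left 15.5% of the control level. SUDS3 stood at 8.47 ± 0.151 in the SDS3 knockdown and 10.05 ± 0.0463 in its controls (n = 3 each), which left 33.4%. The median probe set signal was 186 to 192.6 on the FAM60A arrays and 96.82 to 98.32 on the SDS3 arrays, so levels are compared only within an experiment and never between probe sets. All 5 lung epithelial markers had means above log2 7, 3 of them above log2 10. Means above log2 7 were also found for 3 of 4 measured leukocyte markers (CD3E 7.54, CD14 7.84 and ITGAM 7.26, with PTPRC at 4.64) and 2 of 3 endothelial markers (PECAM1 7.99 and VWF 7.30, with CDH5 at 5.57), none of which reached log2 10. The summed level of the 5 epithelial markers ran from 15.7 to 15.8 (log2) on the FAM60A knockdown arrays and was 15.9 on their controls. It was 15.4 on the SDS3 knockdown arrays and 15.7 on their controls. The sum mostly follows its brightest markers, KRT18 and KRT8 (means of log2 14.9 and 14.3), and hides single changes. After FAM60A knockdown EPCAM changed by -1.22 and CDH1 by -0.486, both called lower (limma), and KRT19 by 0.501, called higher. KRT8 (-0.0292) and KRT18 (-0.146) were not called there. After SDS3 knockdown all 5 were called lower, with changes of -1.52 (CDH1), -0.578 (EPCAM), -0.353 (KRT19), -0.347 (KRT8) and -0.248 (KRT18). Probe sets for 18S ribosomal RNA were 0.277 higher (log2) in the FAM60A knockdown and 0.527 higher in the SDS3 knockdown than in their controls, with an exact permutation p of 0.1 in each, the smallest that 3 against 3 arrays allow. The summed level of the 4 measured leukocyte markers ran from 9.60 to 9.70 on the FAM60A knockdown arrays and from 9.58 to 9.60 on their controls, and from 8.73 to 8.82 on the SDS3 knockdown arrays and from 8.82 to 8.94 on their controls. The part of the marker and 18S shifts in the results was not tested, and in RNA of whole cultures fewer cells of a kind and less RNA per cell cannot be told apart.

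The members moved in both directions, about evenly after FAM60A knockdown and with more falls than rises after SDS3 knockdown. After FAM60A knockdown, 11 members were called higher and 10 lower, 21 of 42 or 50.0%, at an adjusted p under 0.05 (limma, Benjamini-Hochberg over all tested genes), where 36.8% of all tested genes were called, 19.2% higher and 17.6% lower. After SDS3 knockdown, 3 members were called higher and 13 lower, 16 of 42 or 38.1%, where 34.6% of all tested genes were called, 15.8% higher and 18.8% lower. The median log2 change of the members was -0.017 in the FAM60A knockdown and -0.0073 in the SDS3 knockdown, beside -0.0232 and 0.00642 over all tested genes. Knockdown and control arrays did not overlap for 25 members in the FAM60A experiment (48.1% of all genes) and for 22 in the SDS3 experiment (47.6% of all genes). Most changes were small: 6 members passed with a log2 change of at least 0.5 in each knockdown, where 9.8% and 9.51% of all tested genes did so. Of the 42, 11 had a mean under log2 7, and 3 of these 11 were called after FAM60A knockdown and 2 after SDS3 knockdown. Where a pair of changes is given below without names, it is the change after FAM60A and then that after SDS3 knockdown.

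**Figure D1:**
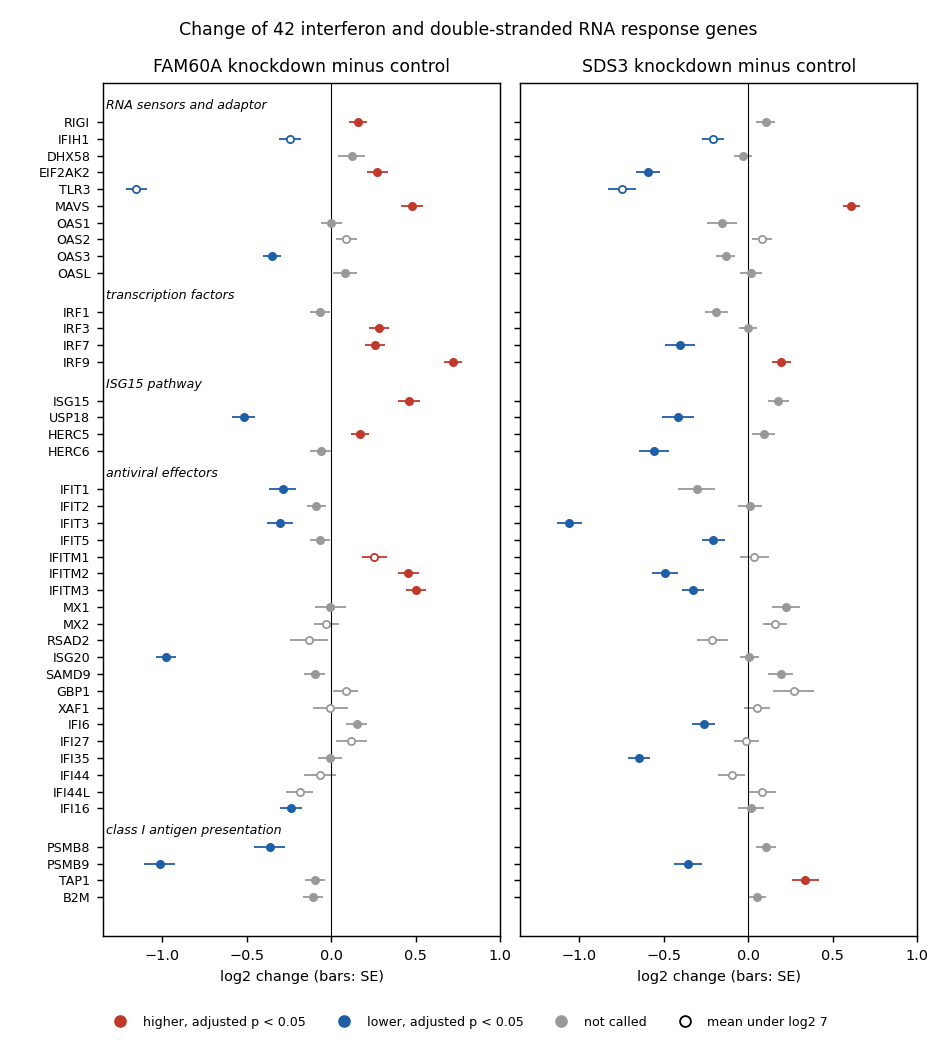
Log2 change of each of the 42 members, knockdown minus control, with bars for the standard error (3 arrays against 3), in the FAM60A experiment (left) and the SDS3 experiment (right). Red marks members called higher, blue members called lower, and open circles a mean under log2 7. TLR3, PSMB9 and ISG20 lie farthest to the left in the FAM60A panel, with changes of -1.15, -1.02 and -0.98, and IFIT3 in the SDS3 panel, with -1.06.

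The sensors and the adaptor of the double-stranded RNA pathway moved in both directions, 3 higher and 3 lower of 10 after FAM60A knockdown, and 1 higher and 3 lower after SDS3 knockdown. The share called was 60% and 40%, beside 36.8% and 34.6% of all tested genes. TLR3, the endosomal receptor for double-stranded RNA, had log2 signals of 5.23, 5.12 and 5.18 on the FAM60A knockdown arrays, against 6.35, 6.40 and 6.23 on their controls. It had 4.13, 4.30 and 4.12 on the SDS3 knockdown arrays, against 4.89, 4.81 and 5.09 on theirs. All knockdown arrays lay below all of their controls in both experiments. The log2 change was -1.15 (SE 0.0634, adjusted p = 2.96e-07), 45.0% of control, in the FAM60A knockdown and -0.75 (SE 0.0855, adjusted p = 0.000218), 59.6% of control, in the SDS3 knockdown. TLR3 is a dim probe set: 7 of 12 arrays reached log2 5, and on 9 of 12, all but the FAM60A controls, its signal was below the array's lower quartile of signals, so its percentages of control rest on values near the low end. That quartile was 6.14 to 6.23 on the FAM60A arrays and 5.10 to 5.13 on the SDS3 arrays. A second probe set fell by 0.43 and 0.56 (adjusted p = 0.00103 and 0.00166 in a fit of every probe set), and the third had 0.098 and -0.10 and passed in neither.

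MAVS, the adaptor on which RIG-I and MDA5 converge, rose in both knockdowns. Its log2 signal was 11.68, 11.62 and 11.57 on the FAM60A knockdown arrays, against 11.14, 11.25 and 11.04 on their controls. In the SDS3 experiment it was 10.88, 10.82 and 10.81 on knockdown arrays, against 10.22, 10.21 and 10.25 on their controls. The groups did not overlap in either experiment. The change was 0.48 (SE 0.0665, adjusted p = 0.000208) after FAM60A knockdown, or 1.39-fold, and 0.61 (SE 0.0498, adjusted p = 3.45e-05) after SDS3 knockdown, or 1.53-fold. All 4 MAVS probe sets had positive changes in both knockdowns, from 0.11 to 0.78 and from 0.51 to 0.67, and 1 of them, at 0.11 (adjusted p = 0.216), did not pass after FAM60A knockdown. With arrays scaled to poly-A controls, the rise after SDS3 knockdown was 0.287 and did not pass (adjusted p = 0.0769).

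RIGI and IFIH1, the sensors above MAVS, had small changes in their brightest probe sets. RIGI had 9.24, 9.23 and 9.17 on the FAM60A knockdown arrays, against 9.08, 9.05 and 9.04 on their controls, a change of 0.16 (SE 0.0535, adjusted p = 0.0374). The groups did not overlap, but the call was lost when any 1 of the 6 arrays was left out (adjusted p 0.0513 to 0.1). Probe sets of shared sequence are those the array design names as matching more than 1 transcript. The other 2 RIGI probe sets had larger rises there, 0.59 (adjusted p = 0.000145) and 0.61 (adjusted p = 0.000207) in the fit of every probe set, in which the brightest, of shared sequence, had an adjusted p of 0.0636. After SDS3 knockdown RIGI had 8.96, 8.87 and 9.0, against 8.81, 8.89 and 8.82 in the controls, a change of 0.10 that did not pass (95% interval -0.026 to 0.23).

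IFIH1, which encodes MDA5, the sensor of long double-stranded RNA, was lower in both knockdowns at a mean under log2 7. It had 6.29, 6.27 and 6.18 on the FAM60A knockdown arrays, against 6.60, 6.46 and 6.41 on their controls, and the groups did not overlap. The change was -0.24 (SE 0.0658, adjusted p = 0.0135), and it did not pass without control replicate 1 (adjusted p = 0.0618) or knockdown replicate 3 (adjusted p = 0.0552). That call was also lost with the mean of all probe sets and with arrays scaled to bacterial or to poly-A controls. It had 5.90, 6.12 and 6.01 on the SDS3 knockdown arrays, against 6.17, 6.23 and 6.27 on their controls, a change of -0.21 (adjusted p = 0.040). That call was lost in 4 of 6 fits with an array left out: without control replicate 2 (adjusted p = 0.101) or 3 (0.121), and without knockdown replicate 1 (0.135) or 3 (0.0783). DHX58, which encodes the related helicase LGP2, had changes of 0.12 and -0.030 and passed in neither.

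EIF2AK2, the gene of the kinase PKR, which halts translation when it binds double-stranded RNA, was called in opposite directions. It had 11.02, 10.89 and 10.89 on the FAM60A knockdown arrays, against 10.62, 10.62 and 10.73 on their controls. On the SDS3 knockdown arrays it had 9.29, 9.19 and 9.43, against 9.87, 9.87 and 9.95 on their controls. The FAM60A knockdown arrays were all above their controls and the SDS3 knockdown arrays all below theirs. The change was 0.27 (SE 0.0618, adjusted p = 0.00500) after FAM60A knockdown and -0.59 (SE 0.0691, adjusted p = 0.00024) after SDS3 knockdown, and the SDS3 change minus the FAM60A change was -0.87 (adjusted p = 1.34e-05 in a fit of 12 arrays). The rise after FAM60A knockdown rested on the brightest probe set: another, of shared sequence, fell there by 0.39 (adjusted p = 0.00267 in the fit of every probe set), and with the mean of all its probe sets the change was -0.0145. Scaled to bacterial or poly-A controls, the rise did not pass either (adjusted p = 0.118 and 0.4).

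**Figure D2:**
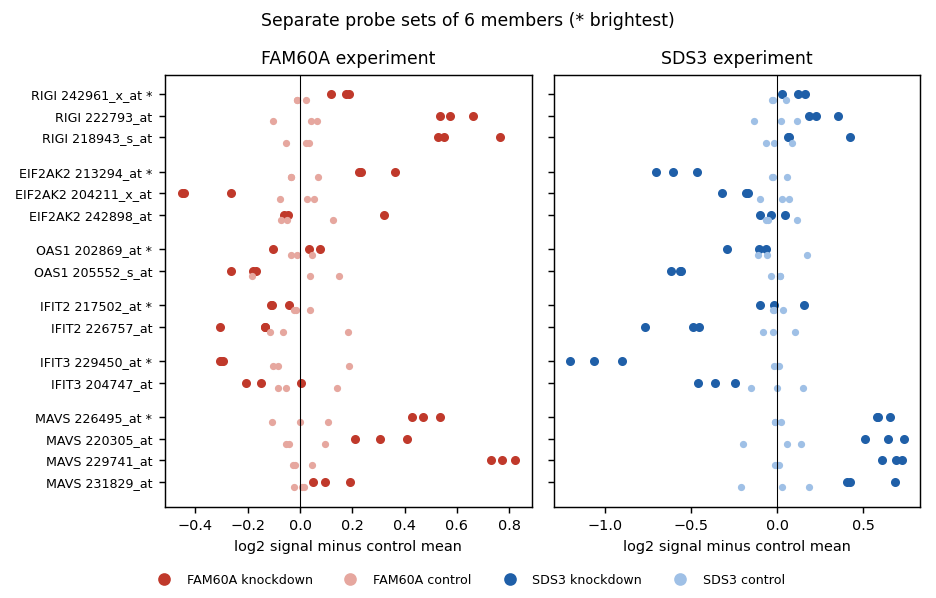
Log2 signal on each array minus the control mean, for each tested probe set of 6 members, in the FAM60A experiment (left) and the SDS3 experiment (right); dark points are knockdown arrays, pale points just below them control arrays, and an asterisk marks the brightest probe set. The MAVS probe sets lie to the right of 0 in both panels, while those of EIF2AK2 part in the FAM60A panel, with mean changes of 0.27 and -0.39 for its brighter pair.

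The oligoadenylate synthetases OAS1, OAS2 and OAS3, which make the messenger that switches on RNase L, and the related gene OASL were mostly not called. OAS3 fell after FAM60A knockdown, with 10.54, 10.48 and 10.48 on the knockdown arrays, against 10.84, 10.87 and 10.84 in the controls, without overlap (log2 change -0.35, SE 0.0531, adjusted p = 0.000382). After SDS3 knockdown OAS3 had a change of -0.13 (adjusted p = 0.103). OAS1, OAS2 and OASL had changes from 0.0017 to 0.088 after FAM60A knockdown and from -0.15 to 0.083 after SDS3 knockdown, none past the threshold. The second OAS1 probe set, of shared sequence, had -0.58 after SDS3 knockdown (adjusted p = 0.000134 in the fit of every probe set), against -0.15 for the brightest.

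Of the 4 measured transcription factors, 3 rose after FAM60A knockdown, and 1 rose and 1 fell after SDS3 knockdown. That is 75% and 50% called, beside 36.8% and 34.6% of all tested genes. IRF9, the DNA-binding part of the complex that reads the ISRE, had 10.21, 10.18 and 10.18 on the FAM60A knockdown arrays, against 9.49, 9.47 and 9.46 on their controls. The 3 arrays of each group lay close together and the groups did not overlap, a change of 0.72 (SE 0.0518, adjusted p = 1.86e-06), or 1.65-fold. IRF9 had 9.35, 9.40 and 9.38 on the SDS3 knockdown arrays, against 9.24, 9.21 and 9.09 on their controls, a change of 0.20 (SE 0.0565, adjusted p = 0.0268). The groups did not overlap, but the call was lost in 5 of 6 fits with an array left out, all but the one without control replicate 1 (adjusted p 0.0541 to 0.0926 in the 5), and its sign turned with arrays scaled to bacterial controls (-0.00823) or to poly-A controls (-0.128). The change was smaller after SDS3 than after FAM60A knockdown by 0.52 (adjusted p = 0.000103).

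IRF3 and IRF7, which switch on interferon genes below the sensors, both rose after FAM60A knockdown, and IRF7 fell after SDS3 knockdown. IRF3 had 11.22, 11.11 and 11.13 on the FAM60A knockdown arrays, against 10.87, 10.95 and 10.81 on their controls, with no overlap, a change of 0.28 (adjusted p = 0.00364). It had -0.0039 after SDS3 knockdown (95% interval -0.13 to 0.12). IRF7 had 8.61, 8.54 and 8.54 on the FAM60A knockdown arrays, against 8.33, 8.37 and 8.22 on their controls, a change of 0.26 (adjusted p = 0.00597). IRF7 had 7.77, 7.69 and 8.03 on the SDS3 knockdown arrays, against 8.26, 8.28 and 8.17 on their controls, a change of -0.40 (adjusted p = 0.00649). The IRF7 groups overlapped in neither experiment, and its 2 changes differed by -0.66 (adjusted p = 0.000449). Both FAM60A calls were lost with arrays scaled to bacterial controls (IRF3 0.253, adjusted p = 0.101; IRF7 0.229, adjusted p = 0.149) and to poly-A controls (IRF3 0.182, adjusted p = 0.372; IRF7 0.158, adjusted p = 0.443). IRF1, a factor that interferon-gamma raises, had -0.067 and -0.19 and passed in neither.

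Among the genes of the ISG15 pathway, the modifier itself and the enzyme that removes it moved apart after FAM60A knockdown. ISG15, a ubiquitin-like protein, had 9.85, 9.85 and 9.78 on the FAM60A knockdown arrays, against 9.44, 9.42 and 9.23 on their controls. The groups did not overlap, and the change was 0.46 (SE 0.0671, adjusted p = 0.000285), or 1.38-fold. On the SDS3 knockdown arrays ISG15 had 8.92, 9.05 and 9.03, against 8.90, 8.81 and 8.75 on their controls. The arrays did not overlap there either, but the change of 0.18 missed the threshold (adjusted p = 0.0558); it passed without control replicate 1 (0.0378) or knockdown replicate 1 (0.0447).

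USP18, which strips ISG15 from proteins and dampens the interferon receptor, fell in both knockdowns. It had 8.62, 8.58 and 8.80 on the FAM60A knockdown arrays, against 9.22, 9.10 and 9.23 on their controls. It had 7.62, 7.72 and 7.45 on the SDS3 knockdown arrays, against 7.83, 8.14 and 8.06 on their controls. Every knockdown array was below every control of its experiment, with changes of -0.52 (SE 0.0706, adjusted p = 0.000181) and -0.41 (SE 0.0948, adjusted p = 0.00913). The change did not differ detectably between knockdowns (0.10, 95% interval -0.16 to 0.37).

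Of the ligase genes, HERC5 rose after FAM60A knockdown and HERC6 fell after SDS3 knockdown. HERC5, the main ligase for ISG15 in human cells, had 9.20, 9.20 and 9.12 on the FAM60A knockdown arrays, against 8.97, 9.05 and 9.0 on their controls, a rise of 0.17 (adjusted p = 0.0337). That call was lost without control replicate 1 (adjusted p = 0.113) or 3 (0.0839) and without knockdown replicate 1 (0.086) or 2 (0.101). HERC6 had 8.87, 8.72 and 8.68 on the FAM60A knockdown arrays, against 8.84, 8.82 and 8.80 on their controls, overlapping groups with a change of -0.062. HERC6 had 7.54, 7.75 and 7.87 on the SDS3 knockdown arrays, against 8.36, 8.28 and 8.20 on their controls. It was lower on all 3 knockdown arrays, a change of -0.56 (SE 0.0874, adjusted p = 0.00127); with its other, dimmer probe set averaged in, the change was -0.19 and did not pass (adjusted p = 0.0555).

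**Figure D3:**
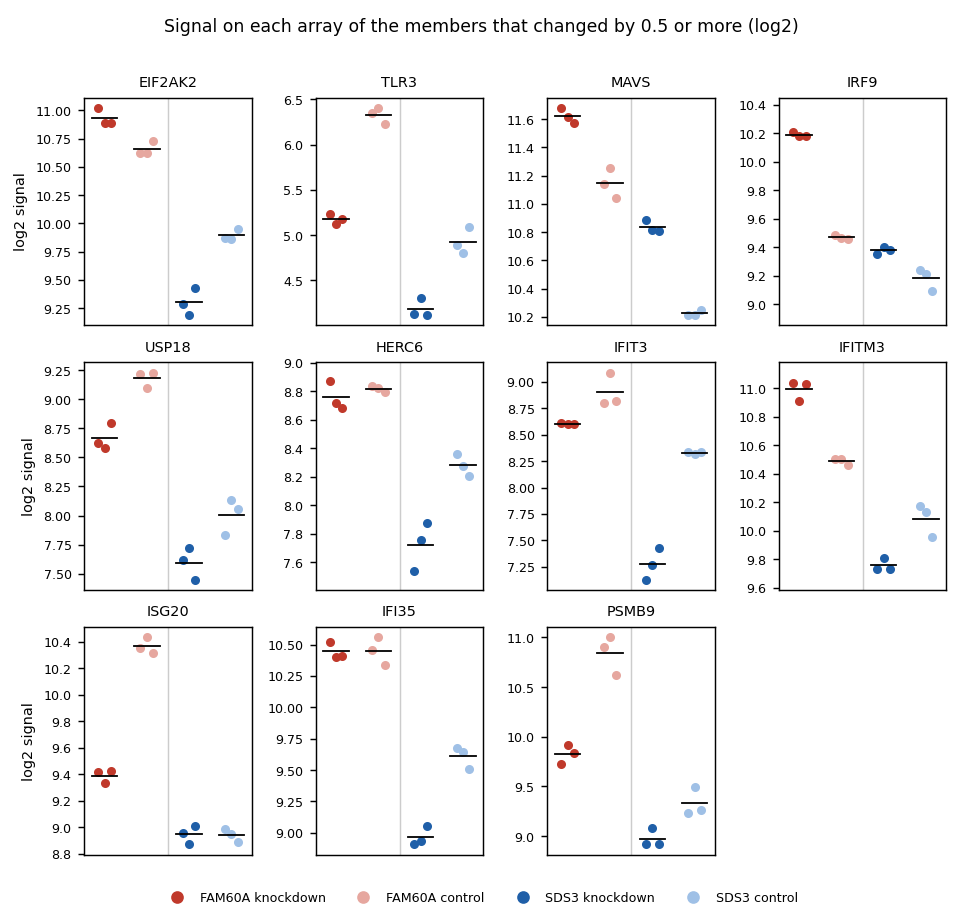
Log2 signal on each of the 12 arrays for the 11 members that passed with a log2 change of at least 0.5 in either knockdown; points are arrays, horizontal lines group means, and the grey line parts the experiments, whose levels are not comparable. TLR3, PSMB9 and USP18 are lower in both knockdowns, MAVS and IRF9 higher in both, ISG20 is lower after FAM60A knockdown, and IFI35 and HERC6 after SDS3 knockdown.

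The 20 antiviral effectors gave 3 higher and 4 lower calls after FAM60A knockdown, and 6 lower and none higher after SDS3 knockdown, where 3 were higher at an unadjusted p under 0.05 (limma). The share called was 35% and 30%, beside 36.8% and 34.6% of all tested genes. ISG20, an exonuclease that degrades single-stranded RNA, had 9.41, 9.33 and 9.43 on the FAM60A knockdown arrays, against 10.35, 10.43 and 10.32 on their controls. Its level was 50.8% of control with no overlap, and it changed by -0.98 on the log2 scale (SE 0.0585, adjusted p = 5.13e-07), and its second probe set gave -0.93. ISG20 had 8.96, 8.87 and 9.01 on the SDS3 knockdown arrays, against 8.98, 8.95 and 8.88 on their controls. Those groups overlapped, with a change of 0.0070 (95% interval -0.12 to 0.14), and the difference between knockdowns was 0.98 (adjusted p = 1.06e-06).

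IFIT3, one of the tetratricopeptide proteins that bind foreign RNA, showed the largest fall of a member after SDS3 knockdown. It had 7.13, 7.26 and 7.43 on the SDS3 knockdown arrays, against 8.34, 8.32 and 8.34 on their controls, 48.0% of control (log2 change -1.06, SE 0.0754, adjusted p = 1.7e-05). It had 8.61, 8.60 and 8.60 on the FAM60A knockdown arrays, against 8.80, 9.09 and 8.82 on their controls, a change of -0.30 (adjusted p = 0.0102). All knockdown arrays were below their controls in both experiments, and the SDS3 change was more negative by 0.76 (adjusted p = 0.000236). The second IFIT3 probe set gave smaller changes, -0.12 after FAM60A knockdown (adjusted p = 0.342) and -0.35 after SDS3 knockdown (adjusted p = 0.0208 in the fit of every probe set).

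The other IFIT genes had smaller changes in their brightest probe sets. IFIT1, which binds RNA with an unmethylated cap, had 7.82, 7.80 and 7.85 on the FAM60A knockdown arrays, against 8.24, 8.17 and 7.92 on their controls, a change of -0.29 (adjusted p = 0.0151). That call was lost without control replicate 1 (adjusted p = 0.0643) or 2 (0.0547). It had 6.35, 6.78 and 6.55 on the SDS3 knockdown arrays, against 6.96, 6.89 and 6.75 on their controls, overlapping groups with a change of -0.31 (adjusted p = 0.0557); without knockdown replicate 2 it was -0.416 and passed (0.0108). IFIT5 fell by 0.21 after SDS3 knockdown (adjusted p = 0.0482), a call lost without any of the arrays but knockdown replicate 3 (0.0775 to 0.161). IFIT2 had -0.087 and 0.013 and was not called, although its second probe set had -0.57 after SDS3 knockdown (adjusted p = 0.00243 in the fit of every probe set).

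IFITM2 and IFITM3, membrane proteins that block fusion of entering viruses, rose after FAM60A knockdown and fell after SDS3 knockdown. IFITM3 had 11.04, 10.91 and 11.03 on the FAM60A knockdown arrays, against 10.50, 10.50 and 10.46 on their controls. It had 9.73, 9.81 and 9.73 on the SDS3 knockdown arrays, against 10.17, 10.13 and 9.96 on their controls. The groups were apart in both experiments, with changes of 0.50 (SE 0.0575, adjusted p = 5.18e-05) and -0.33 (SE 0.0668, adjusted p = 0.0052) and a difference of -0.83 (adjusted p = 1.04e-05).

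IFITM2 followed the same order. It had 11.29, 11.15 and 11.29 in the FAM60A knockdown, against 10.80, 10.77 and 10.80 in its controls. It had 10.24, 10.25 and 10.28 in the SDS3 knockdown, against 10.88, 10.79 and 10.58 in its controls. Its changes were 0.46 (adjusted p = 0.000135) and -0.49 (adjusted p = 0.00118), and the groups overlapped in neither. These genes are near copies read by probe sets of shared sequence, so signal of IFITM1, IFITM2 and IFITM3 may not be fully separate. IFITM1, dimmer, rose by 0.26 after FAM60A knockdown (adjusted p = 0.0187), a call lost without control replicate 1 (0.0531) or 3 (0.0503) or knockdown replicate 1 (0.052), and had 0.036 after SDS3 knockdown.

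IFI35 and IFI6 were lower after SDS3 knockdown. IFI35, the partner of NMI, had 8.91, 8.93 and 9.05 on the SDS3 knockdown arrays, against 9.67, 9.64 and 9.51 on their controls, 64.0% of control (log2 change -0.64, SE 0.0648, adjusted p = 0.000107). It had 10.52, 10.40 and 10.41 on the FAM60A knockdown arrays, against 10.46, 10.56 and 10.33 on their controls, overlapping groups with a change of -0.0056. The difference between knockdowns was -0.64 (adjusted p = 0.000261). IFI6, a mitochondrial antiviral protein, fell by 0.26 after SDS3 knockdown (adjusted p = 0.0165); without control replicate 2 (0.0646) or knockdown replicate 1 (0.0631) it did not pass. After FAM60A knockdown IFI6 had 0.15 (adjusted p = 0.0817).

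Several genes that are commonly read as markers of an interferon response did not pass in either knockdown. MX1, a dynamin-like GTPase that traps viral nucleocapsids, had 7.47, 7.05 and 7.22 on the FAM60A knockdown arrays, against 7.29, 7.25 and 7.21 on their controls. On the SDS3 knockdown arrays it had 6.93, 7.13 and 6.92, against 6.84, 6.85 and 6.63 on their controls. The groups overlapped in the FAM60A experiment (-0.0043, 95% interval -0.21 to 0.20) and stood apart in the SDS3 experiment (0.22, 0.037 to 0.41, adjusted p = 0.0657). MX2, RSAD2, IFI27, IFI44, IFI44L, XAF1, GBP1 and SAMD9 were likewise not called, with changes from -0.19 to 0.12 after FAM60A knockdown and from -0.21 to 0.27 after SDS3 knockdown. All of these but SAMD9 had means under log2 7. GBP1 reached log2 5 on 6 arrays and IFI44L on 4. IFI16, a DNA sensor, fell by 0.24 after FAM60A knockdown (adjusted p = 0.0177), a call lost without control replicate 1 (0.0711) or 3 (0.064) or knockdown replicate 3 (0.0741), and had 0.016 after SDS3 knockdown.

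In the class I presentation genes of the list, the immunoproteasome subunits PSMB9 and PSMB8 fell after FAM60A knockdown. A further subunit, PSMB10, outside the list, had 9.95, 9.92 and 9.87 on the FAM60A knockdown arrays. Its controls had 9.92, 10.08 and 9.94, so the groups overlapped. PSMB9, an inducible catalytic subunit, had 9.72, 9.92 and 9.84 on the FAM60A knockdown arrays, against 10.90, 11.00 and 10.62 on their controls. It had 8.92, 9.08 and 8.92 on the SDS3 knockdown arrays, against 9.24, 9.50 and 9.26 on their controls. Knockdown arrays were below controls throughout. The change was -1.02 (SE 0.0941, adjusted p = 1.14e-05), 49.5% of control, and -0.36 (SE 0.0822, adjusted p = 0.00923), 78.0% of control, and it was less negative after SDS3 knockdown by 0.66 (adjusted p = 0.00269).

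PSMB8, another such subunit, fell by 0.36 after FAM60A knockdown (adjusted p = 0.00961), with 9.05, 9.03 and 9.12 on the knockdown arrays, against 9.33, 9.67 and 9.29 on their controls. It had 0.11 after SDS3 knockdown (adjusted p = 0.203). TAP1, which carries peptides into the endoplasmic reticulum and whose gene lies next to PSMB9, had 8.93, 9.05 and 9.26 on the SDS3 knockdown arrays, against 8.74, 8.76 and 8.73 on their controls. That was a rise of 0.34 (SE 0.08, adjusted p = 0.0111). The rise did not pass when scaled to bacterial (log2 change 0.133) or poly-A controls (log2 change 0.0132). The FAM60A change of TAP1 was -0.095 (adjusted p = 0.254). B2M, the class I light chain, had -0.11 and 0.052 and passed in neither. The PSMB8, PSMB9 and TAP1 changes each were higher after SDS3 than after FAM60A knockdown, with differences of 0.47, 0.66 and 0.43. The difference calls of PSMB8 (adjusted p = 0.203 and 0.459) and TAP1 (0.282 and 0.54) were lost with bacterial and poly-A scaling, and that of PSMB9 with poly-A scaling (0.136).

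Calls in the same direction in both knockdowns and calls in opposite directions both occurred. Of the 42 members, 2 were higher in both (MAVS and IRF9), 5 were lower in both (TLR3, IFIH1, USP18, IFIT3 and PSMB9), and 4 were higher after FAM60A and lower after SDS3 knockdown (EIF2AK2, IRF7, IFITM2 and IFITM3). A further 10 were called after FAM60A knockdown and missed the threshold after SDS3 knockdown, 5 the other way round, and 16 were called in neither; a missed threshold does not show that the responses differ. Over all tested genes, 18.1% were called in the same direction in both and 2.59% in opposite directions. Several placements of members rest on calls that were lost under some alternatives. These include the calls of MAVS, IRF9 and IFIH1 after SDS3 knockdown and of IFIH1, EIF2AK2 and IRF7 after FAM60A knockdown. The difference between the knockdowns, tested itself in a fit of all 12 arrays, was called for 18 members, 7 with a higher and 11 with a lower change after SDS3 knockdown, where 25.3% of all tested genes were called, 9.99% higher and 15.3% lower. The difference was at least 0.5 in size for 9 members, where 8.48% of all tested genes were called with such a size. The 2 experiments have no control array in common.

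**Figure D4:**
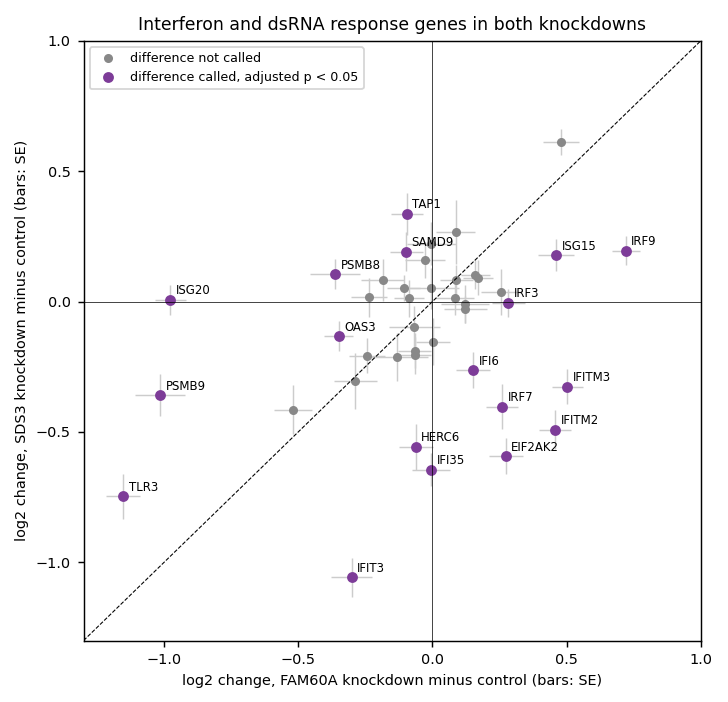
Log2 change after SDS3 knockdown (vertical) against the log2 change after FAM60A knockdown (horizontal) for the 42 members, each knockdown minus its own controls, with bars for the standard error. Purple points are the 18 members whose 2 changes differ at an adjusted p under 0.05, and the dashed line marks equal changes. IFITM2, IFITM3, EIF2AK2 and IRF7 lie in the lower right and ISG20 on the left at a vertical value near 0.

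Outside the list, 122 further genes of the pathway were taken by function, of which 110 were tested. After FAM60A knockdown 31 were called higher and 19 lower, and after SDS3 knockdown 23 higher and 21 lower. That is 45.5% and 40% called, beside 36.8% and 34.6% of all tested genes. Among interferons and their receptors, 5 of 11 rose and none fell after FAM60A knockdown, where 1 was lower at an unadjusted p under 0.05 (limma), and 4 rose and 3 fell after SDS3 knockdown. Their share called was 45.5% and 63.6%. IL10RB, a receptor chain shared by interleukin-10 and interferon-lambda, had 9.78, 9.87 and 9.58 on the FAM60A knockdown arrays, against 8.23, 8.21 and 8.38 on their controls. It had 8.75, 8.78 and 8.68 on the SDS3 knockdown arrays, against 7.26, 7.28 and 7.32 on their controls. The arrays were more than 1 log2 unit apart in both experiments, with rises of 1.47 (adjusted p = 2.96e-07) and 1.45 (adjusted p = 1.03e-06).

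IFNAR1, a chain of the receptor for type I interferon, was the gene of these lists with the largest difference between knockdowns. It had 7.45, 7.02 and 7.43 on the SDS3 knockdown arrays, against 8.60, 8.52 and 8.44 on their controls, a fall of 1.22 on the log2 scale (SE 0.113, adjusted p = 6.72e-05). It had 9.02, 8.99 and 9.0 on the FAM60A knockdown arrays, against 8.82, 8.86 and 8.74 on their controls, a rise of 0.20 (adjusted p = 0.0159). Its other 3 probe sets had -1.75, -0.40 and -0.17 after SDS3 knockdown, of which the last did not pass (adjusted p = 0.0600), and none of them passed after FAM60A knockdown. The epithelial interferon gene IFNE, at a mean under log2 7, rose by 0.87 after FAM60A knockdown (adjusted p = 1.24e-05) and by 0.77 after SDS3 knockdown (adjusted p = 0.00017). IFNAR2, the partner chain, rose by 0.41 and 0.38. Its FAM60A call was lost with the mean of all probe sets, without those of shared sequence and with poly-A scaling. The SDS3 change of IFNAR2 was not tested under these alternatives. With poly-A scaling the median SDS3 change of all genes was -0.317. IFNGR1, of the interferon-gamma receptor, rose by 0.56 after FAM60A knockdown. IFNL2, an interferon-lambda gene that is dim and one of several near copies, rose by 0.38 after SDS3 knockdown (adjusted p = 0.00952), a call lost with bacterial and with poly-A scaling.

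**Figure D5:**
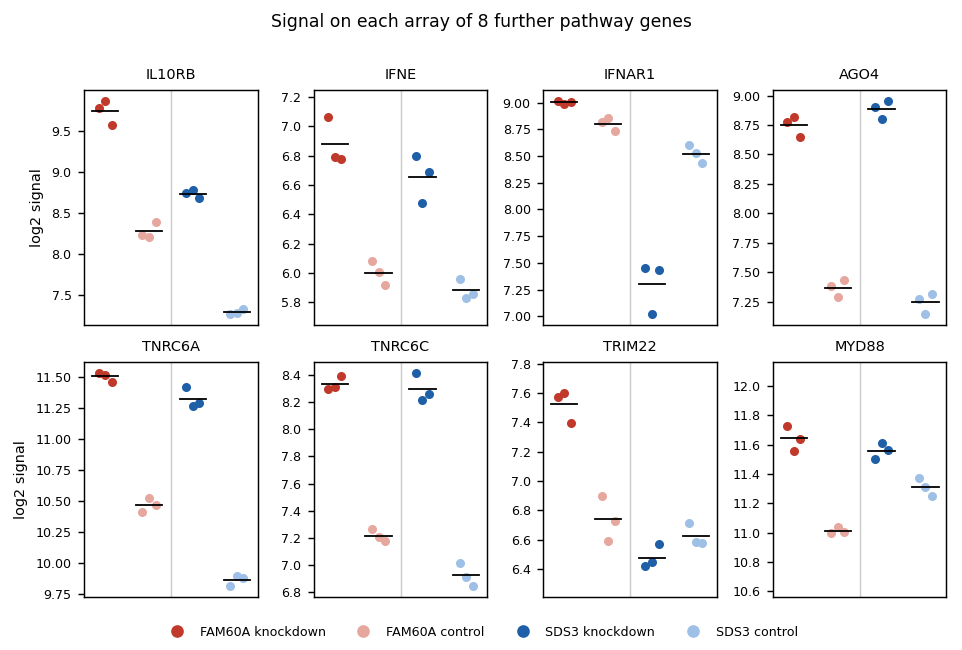
Log2 signal on each of the 12 arrays for 8 pathway genes outside the list; points are arrays, horizontal lines group means, and the grey line parts the experiments. IL10RB, IFNE, AGO4, TNRC6A and TNRC6C are higher in both knockdowns, IFNAR1 is lower after SDS3 knockdown, and TRIM22 is higher after FAM60A knockdown.

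Of 13 JAK-STAT and IRF regulators, 5 rose and 3 fell after FAM60A knockdown, and 3 rose and none fell after SDS3 knockdown, where 2 were lower at an unadjusted p under 0.05 (limma). The share called was 61.5% and 23.1%, beside 36.8% and 34.6% of all tested genes. STAT3 rose by 0.54 after FAM60A knockdown (adjusted p = 0.000142) and had -0.15 after SDS3 knockdown. JAK1, a kinase of the interferon receptors, rose by 0.26 and 0.23, and NLRC5, the activator of class I genes, by 0.25 and 0.51. TYK2, another receptor kinase, rose by 0.23 after FAM60A knockdown, and IRF2 rose by 0.25 after SDS3 knockdown and fell by 0.20 after FAM60A knockdown. Of 21 nucleic acid sensing genes, 8 rose and 2 fell after FAM60A knockdown, and 4 rose and 1 fell after SDS3 knockdown. Their share called was 47.6% and 23.8%. MYD88, the adaptor of most Toll-like receptors but not TLR3, rose by 0.63 (adjusted p = 1.4e-05) and 0.25 (adjusted p = 0.00916), and TRAF3, a ubiquitin ligase of the pathway, by 0.27 and 0.33. With poly-A scaling the SDS3 values of MYD88, JAK1, IRF2 and TRIM25 turned negative (-0.0771, -0.0884, -0.0751 and -0.0564). RNF135 and TRAF6, ubiquitin ligases, rose by 0.24 each after FAM60A knockdown, and TRIM25, another, by 0.27 after SDS3 knockdown. The RNF135 call was lost without control replicate 1 (adjusted p = 0.0682) or 3 (0.081), without knockdown replicate 3 (0.0516) and without probe sets of shared sequence (0.0796), and the TRAF6 call without control replicate 3 (0.0521). The SDS3 call of IRF2 was lost without control replicate 1 (adjusted p = 0.0809) or 2 (0.106) and without knockdown replicate 2 (0.0993) or 3 (0.0588). With bacterial and with poly-A scaling, the FAM60A calls of JAK1, NLRC5, TYK2, TRAF3, RNF135 and TRAF6 were lost, as were the SDS3 calls of JAK1, IRF2, MYD88, TRAF3 and TRIM25. The SDS3 call of NLRC5 was lost with poly-A scaling, and that of JAK1 also with the mean of all probe sets. The fall among the nucleic acid sensing genes after SDS3 knockdown was that of NLRX1, a mitochondrial protein, with -0.36.

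Among 40 other interferon-stimulated genes the counts were the same in both knockdowns, 6 higher and 9 lower. That is 37.5% called in each, beside 36.8% and 34.6% of all tested genes. TRIM22 rose by 0.78 after FAM60A knockdown (adjusted p = 3.38e-05) and had -0.15 after SDS3 knockdown (adjusted p = 0.111). LGALS3BP rose by 0.56 after FAM60A knockdown, while NMI fell by 0.60 (adjusted p = 5.08e-05) and SP100 by 0.44. NMI and SP100 were also lower on the SDS3 knockdown arrays. NMI had 10.59, 10.58 and 10.66 there, against 10.94, 10.95 and 11.00 on the controls. SP100 had 9.19, 9.29 and 9.26, against 9.62, 9.69 and 9.72. After SDS3 knockdown DDX60 fell by 0.58, SAMD9L by 0.58, DDX60L by 0.56 and UBE2L6, the ISG15-conjugating enzyme, by 0.49. Without probe sets of shared sequence the sign of DDX60L turned, to 0.152, and it was not called (adjusted p = 0.0712). The FAM60A knockdown arrays of SAMD9L, DDX60L and UBE2L6 also lay below all of their controls, and those of DDX60 overlapped them. Of 15 other class I genes, 3 rose and 4 fell in each knockdown, 46.7% called. ERAP1, a peptide-trimming enzyme, fell by 0.58 after FAM60A knockdown, but without probe sets of shared sequence its sign turned, to 0.0474, and it was not called (adjusted p = 0.628). TAPBP, which encodes tapasin, rose by 0.39 there, a call lost with the mean of all probe sets and with poly-A scaling. HLA-E and PSME1 rose in both, by 0.26 and 0.25 after FAM60A knockdown and by 0.26 and 0.24 after SDS3 knockdown. Their FAM60A calls were lost with bacterial and with poly-A scaling. Their SDS3 changes were not tested under these scalings, where the median SDS3 change of all genes was -0.197 and -0.317. CANX, the chaperone calnexin, fell by 0.77 after SDS3 knockdown (adjusted p = 0.00012), ERAP2 by 0.35, TAPBPL by 0.33 and PSMB10 by 0.28. The ERAP2 call was lost without control replicate 1 (adjusted p = 0.0582) or 3 (0.0702) or knockdown replicate 2 (0.0594), and the TAPBPL call without control replicate 2 (0.0921) or knockdown replicate 1 (0.0942) or 2 (0.0734).

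Genes of the RNA interference machinery, which uses the transfected siRNA, were listed because every group received it. Of 10 tested, 4 rose and 1 fell after FAM60A knockdown, and 3 rose and 4 fell after SDS3 knockdown. The share called was 50% and 70%, beside 36.8% and 34.6% of all tested genes. AGO4, an Argonaute protein, had 8.77, 8.82 and 8.65 on the FAM60A knockdown arrays, against 7.38, 7.29 and 7.44 on their controls. It had 8.90, 8.80 and 8.96 on the SDS3 knockdown arrays, against 7.28, 7.14 and 7.32 on their controls. All knockdown arrays stood more than 1 log2 unit above their controls, with changes of 1.38 (adjusted p = 1.13e-07) and 1.64 (adjusted p = 1.51e-06). TNRC6A and TNRC6C, scaffold proteins of the silencing complex, rose by 1.04 and 1.12 after FAM60A knockdown and by 1.46 and 1.37 after SDS3 knockdown. The other tested TNRC6C probe sets had changes between -0.11 and 0.27, 1 of them past the threshold (0.27 after SDS3 knockdown, adjusted p = 0.0117). AGO1 fell by 0.58 after SDS3 knockdown and AGO3 by 0.37 after FAM60A and 0.32 after SDS3 knockdown. With the mean of its probe sets the FAM60A value of AGO3 was 0.0731, and its SDS3 value was not tested that way.

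Of the 21 members called after FAM60A knockdown, 8 had a further tested probe set, and a further one was called the same way for 5 and the other way for EIF2AK2. Of the 16 called after SDS3 knockdown, 6 had a further tested probe set, and a further one was called the same way for 3 and the other way for none; the adjusted p there is from the limma fit of every probe set. After FAM60A knockdown the direction that holds more members also depended on the scaling, while after SDS3 knockdown lower members outnumbered higher ones under each scaling run. With arrays scaled to all bacterial control probe sets, 5 members were higher and 8 lower after FAM60A knockdown, and 1 higher and 19 lower after SDS3 knockdown, where the median change of all genes was -0.0531 and -0.197. The changes of TLR3, IRF9, ISG20 and PSMB9 after FAM60A knockdown, and of EIF2AK2, TLR3, IFIT3 and IFI35 after SDS3 knockdown, passed under every alternative that tested them; the filter of log2 7 removes TLR3.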

How the data were processed

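RNA of 12 A549 samples was hybridised to 1-colour Affymetrix arrays. The deposited values are linear signal intensity per probe set after RMA (background correction, quantile normalization and summarization), per the submitters' processing notes; joint processing of the 12 arrays is not stated in what was used here. The linear scale was found from the values, and the log2 of each value was taken before any test, where log2 values had been assumed. Of 54675 probe sets, 41097 had 1 gene symbol, 1801 several and 11777 none listed; symbols were updated through RefSeq for 41043. A gene needed log2 5 on at least 3 arrays, and genes with a mean under log2 7 were marked. For each knockdown against its 3 controls, limma 3.58.1 (lmFit, eBayes; R 4.3.3) was fitted, with Benjamini-Hochberg adjustment over all tested genes and calls at an adjusted p under 0.05. The SDS3 change minus the FAM60A change was a contrast in a limma fit of all 12 arrays. Every adjusted p in the text is from limma, and intervals are 95% intervals of the fitted change.

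The members and the pathway lists were chosen with earlier results of these data known. Values of every array were given for members called with a log2 change of at least 0.5, for RIGI, IFIH1, EIF2AK2, TLR3, IFIT1, ISG15 and MX1, and for a few further members chosen after their values were seen; of each pathway list, up to 4 called genes per knockdown with the largest change were named. Same-numbered replicates correlated between -0.118 and 0.0343 in their deviations, so the numbers were not taken to pair samples. No replicates were duplicates: at most 0.309% of values were equal between a pair. The fits were tested on simulated data, and figures were drawn with matplotlib 3.10.9.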

Additional observations from a re-analysis of the deposited data

Results flagged for a closer look

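The response to SDS3 knockdown differed from the response to FAM60A knockdown, by the test of the difference itself in the limma fit of 12 arrays, for 18 of the 42 members; 25.3% of all tested genes were called by that test. Of the 110 tested pathway genes outside the list, 29 were called (26.4%), and the 17 given here are those among the genes named for the size of their changes. Each value here is the log2 change after SDS3 knockdown minus that after FAM60A knockdown, and adjusted p-values ran from 1.06e-06 to 0.0429. Of the sensors, EIF2AK2 had -0.87, TLR3 0.40 and OAS3 0.22. Of the transcription factors, IRF7 had -0.66, IRF9 -0.52 and IRF3 -0.29. In the ISG15 pathway, HERC6 had -0.50 and ISG15 -0.28. Of the effectors, IFITM2 had -0.95, IFITM3 -0.83, IFIT3 -0.76, IFI35 -0.64, IFI6 -0.41, SAMD9 0.29 and ISG20 0.98. Of the class I genes, TAP1 had 0.43, PSMB8 0.47 and PSMB9 0.66. SAMD9 passed in neither knockdown alone.

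Of the receptors and interferons, IFNAR1 had -1.42, IFNGR1 -0.43 and IFNL2 0.52. Of the regulators, STAT3 had -0.69, TYK2 -0.27 and IRF2 0.44. Of the sensing genes, MYD88 had -0.38, NLRX1 -0.25 and TRIM25 0.33. Of the other interferon-stimulated genes, TRIM22 had -0.93, LGALS3BP -0.45, DDX60 -0.40 and SAMD9L -0.32. Of the class I genes outside the members, CANX had -0.77 and ERAP1 0.57. Of the RNA interference genes, AGO1 had -0.56 and TNRC6A 0.42. The differences of these genes outside the list were not tested under the alternatives, which were run for the differences of members only. The FAM60A change of ERAP1, which enters its difference, turned sign without probe sets of shared sequence. The difference calls of OAS3, SAMD9 and ISG15 were lost in 9, 9 and 6 of 12 fits with an array left out. With bacterial and with poly-A scaling the difference calls of TLR3, PSMB8, TAP1, OAS3 and SAMD9 were lost, and with poly-A scaling also those of PSMB9, IRF3 and ISG15. The TLR3, HERC6, OAS3 and SAMD9 calls were lost with the mean of all probe sets, that of ISG15 with quantile normalization, and that of SAMD9 with arrays centred on their medians. With a replicate block, the OAS3 and ISG15 calls were lost. The experiments also differed in array level and in the 18S change, whose part in these differences was not tested.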

How the results depend on the processing

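Counts of members given as higher then lower were 11 and 10 after FAM60A knockdown, 3 and 13 after SDS3 knockdown, and 7 and 11 for the difference; over all alternatives, 158 counts stayed within 1.5 times the main one and 28 did not. Members higher after SDS3 knockdown numbered 6 with a mean filter of log2 7, 5 with the mean of all probe sets and 5 in a fit of all 12 arrays. The difference was higher for 4 members with the mean of all probe sets. Scaled to all bacterial control probe sets, 5 members were higher after FAM60A knockdown and 1 after SDS3 knockdown, the difference was higher for 2, and 4298 genes were called after FAM60A knockdown. Scaled to the poly-A control probe sets, an alternative chosen after seeing the data, the counts were 5 higher after FAM60A knockdown, 0 higher and 22 lower after SDS3 knockdown (limma; 1 higher at an unadjusted p under 0.05), and 1 higher for the difference, with 3591 genes called after FAM60A knockdown and 2529 for the difference. At an adjusted p under 0.01, 6 members were lower after FAM60A knockdown, 1 was higher after SDS3 knockdown and the difference was higher for 4, with 4277 genes called after SDS3 knockdown and 2811 for the difference. With at least a 1.5-fold change, the counts were 1 and 3 after FAM60A knockdown, 1 and 4 after SDS3 knockdown, and 2 and 6 for the difference, among 1367, 1296 and 1097 genes. Fewer calls follow from the construction of those 2 thresholds; for the rest the cause was not tested.

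The share of called genes that were higher was 52.2% after FAM60A knockdown, 45.7% after SDS3 knockdown and 39.5% for the difference. It was 49.7%, 11.7% and 9.35% with the bacterial scaling and 37.5%, 5.15% and 7.55% with the poly-A scaling, where the median change of all genes was -0.124 after FAM60A and -0.317 after SDS3 knockdown.

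Signs turned in 20 cases. With the mean of all probe sets, EIF2AK2 had -0.0145 and AGO3 0.0731 after FAM60A knockdown. Without probe sets of shared sequence, ERAP1 had 0.0474 after FAM60A and DDX60L 0.152 after SDS3 knockdown. MX1, not called, had 0.00379 after FAM60A knockdown with quantile normalization, and 0.0174, 0.0922 and 0.00997 without control replicate 1, knockdown replicate 2 or knockdown replicate 3. After SDS3 knockdown the bacterial scaling gave -0.00823 for IRF9, -0.101 for RIGI and -0.0249 for ISG15. The poly-A scaling gave -0.128 for IRF9, -0.22 for RIGI, -0.144 for ISG15, -0.101 for MX1, -0.0751 for IRF2, -0.0884 for JAK1, -0.0564 for TRIM25 and -0.0771 for MYD88, and a difference of -0.00481 for OAS3. With that scaling MAVS had 0.287 after SDS3 knockdown (limma adjusted p = 0.0769). The FAM60A calls of RIGI, IFIH1, HERC5, IFITM1 and IFI16 were lost with bacterial and with poly-A scaling. Those of RIGI and HERC5 were also lost with quantile normalization and with a replicate block, and that of IFI16 with the mean of all probe sets. The SDS3 call of IFIT5 was lost with that mean and without probe sets of shared sequence. Pathway genes were run through the alternatives only for the knockdown in which they were among the largest changes.

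With 1 array left out, MX1 ran from -0.115 to 0.0922 after FAM60A knockdown, and members numbered 8 to 10 higher and 7 to 12 lower after FAM60A knockdown, 2 to 4 and 10 to 14 after SDS3 knockdown, and 5 to 8 and 10 to 11 for the difference. With a replicate block, the counts were 9 and 10, 4 and 14, and 6 and 10, each within 1.5 times the main one, among 6239, 5848 and 4003 genes called. The replicate numbers were not taken to pair the samples. The number of arrays and the dim signal of 11 members limit what could be seen.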
